A study of Mus musculus with 15 samples.

Results

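The comparison described here set islets transduced with ca-Nfatc2 directly against islets transduced with ca-Nfatc1, and asked which genes separate these transcription factors in mouse pancreatic islets. Its members are 10 of the 15 RNA-sequencing libraries of the study: the 5 libraries whose names mark ca-Nfatc2 and the 5 that mark ca-Nfatc1, paired by the date in the name. The ca-Nfatc2 libraries came from islets that received an adenovirus (Ad) for a constitutively active (ca) mouse Nfatc2, in which regulatory serines are replaced by alanines. The ca-Nfatc1 libraries came from islets that received the corresponding virus for mouse Nfatc1, and the 5 GFP libraries, from islets that received a virus for green fluorescent protein, serve here only to place the values. Everything else was shared: the islets were from B6 (C57BL/6) mice whose age is not given in the sources used here, about 1200 islets of 6 mice were pooled on each of 5 days, each pool was split over the 3 viruses, and RNA of the whole islets was taken 48 hr later. Replicates are numbered by day, so that libraries with 1 number came from 1 pool. The CMV promoter drove the transgenes in any islet cell that the virus entered, the expression was far above that of the endogenous genes, and the islets were not sorted by cell type, so that fewer cells of a type and less RNA per cell cannot be told apart.

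NFAT proteins are held in the cytoplasm by phosphorylation. A rise of intracellular calcium activates the phosphatase calcineurin, which removes these phosphates and lets NFAT enter the nucleus, where it binds the core letters GGAAA, often beside partners such as AP-1. The family is best known for cytokine genes in T cells and for osteoclast genes in bone, and in islets the pathway is linked to the growth and secretory function of β-cells. Nfatc1 and Nfatc2 share the DNA-binding domain but differ in their termini, so a direct contrast of their active forms asks what each does at equal timing in the same islets.

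All values are expected counts per gene that the authors normalized by library size, called normalized counts below. Differences are log2(normalized count + 1) with ca-Nfatc2 minus that with ca-Nfatc1, and are positive where ca-Nfatc2 was higher. Of 14151 genes tested in limma with the day as a block, 8262 passed a Benjamini-Hochberg adjusted p of 0.05, which is 58.4%. There were 3833 genes higher with ca-Nfatc2 (27.1%) and 4429 lower (31.3%), with a median difference over all genes of -0.04. Most of these differences were small, since 673 genes (4.76%) were at least 2-fold higher and 417 (2.95%) at least 2-fold lower. At 4-fold or more, 229 genes (1.62%) were higher and 70 (0.495%) lower. Every ca-Nfatc2 library was above every ca-Nfatc1 library for 2593 genes (18.3%) and below for 2300 (16.3%). Counts of gene lists below are to be read beside the shares of 27.1% higher and 31.3% lower.

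The libraries were similar in depth, with 13.5 to 19.8 M expected counts with ca-Nfatc2 and 15.3 to 21.1 M with ca-Nfatc1 (exact two-sided permutation p = 0.817). Correlations of log2 values were 0.975 to 0.988 among ca-Nfatc2 libraries, 0.986 to 0.993 among ca-Nfatc1 libraries and 0.942 to 0.961 between them. Islet hormone genes took 4.16 to 6.62% of the signal with ca-Nfatc2 and 6.30 to 8.41% with ca-Nfatc1 (exact two-sided permutation p = 0.0317), and all 8 β-cell markers looked at passed the filter on low values. The library of ca-Nfatc2 replicate 4 stood apart from the other 4 of its group, and many of the results that it moved are given with and without it. The labels held for the transgenes: Nfatc2 was at 37600.0, 58781, 54344, 89098 and 52659 normalized counts with ca-Nfatc2, against 384, 352, 546, 425 and 427 with ca-Nfatc1. Nfatc1 was at 181, 271, 319, 423 and 333 with ca-Nfatc2 and at 29292, 24705, 29245, 28301 and 26554 with ca-Nfatc1. Neither pair of groups overlapped, and the level of each transgene cannot be set against that of the other without its transcript length.

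**Figure D1:**
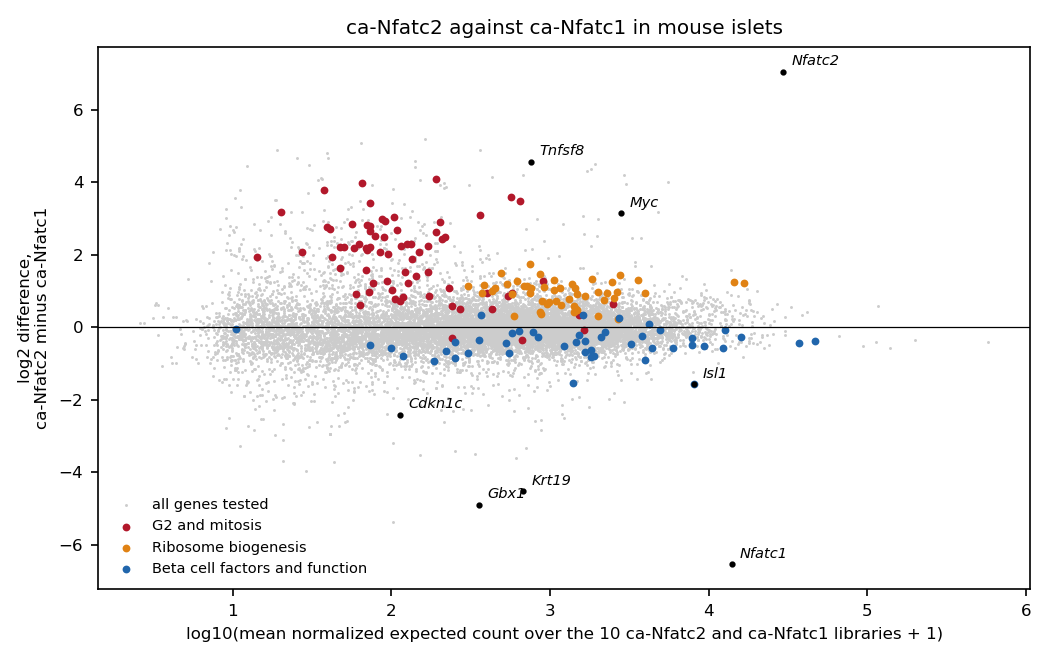
Log2 difference of ca-Nfatc2 minus ca-Nfatc1 against the mean normalized count over the 10 libraries on a log10 axis, 1 point per gene tested. Nearly all genes of G2 and mitosis (red) and all of ribosome biogenesis (orange) lie above 0 and most genes of β-cell function (blue) below it, with the transgenes Nfatc2 at 7.06 and Nfatc1 at -6.54.

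The genes with the largest differences were mostly low with GFP and were higher with one ca-NFAT than with the other by a wide margin. Genes higher with ca-Nfatc2 included Tnfsf8 (CD30 ligand, a TNF family ligand of lymphocytes), Spink5 (a secreted serine protease inhibitor), Ccr3 (the eotaxin receptor) and Slc6a13 (a GABA transporter). Genes higher with ca-Nfatc1 included Gbx1 (a homeobox factor), Krt19 (a keratin of ductal epithelium), Lrp4 (a receptor of the LDL receptor family), Tead2 (a DNA-binding partner of YAP) and Rab13 (a small GTPase of tight junctions). The 12 largest of each direction, with a mean of at least 100 and the same direction on 5 of 5 days, span 4.14 to 7.06 and -6.54 to -2.61. The outer ends of these spans are the transgenes Nfatc2 and Nfatc1, whose differences the viruses set.

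Tnfsf8 was at 1386, 1311, 1396, 1713 and 1442 normalized counts with ca-Nfatc2, against 48.3, 50.9, 93.9, 41.4 and 80.1 with ca-Nfatc1, and at 5.38 to 8.88 with GFP. All ca-Nfatc2 libraries were thus far above all ca-Nfatc1 libraries, which were in turn above all GFP libraries, and the difference was 4.57 (standard error 0.19, limma adjusted p = 1.97e-10). The same ordering of groups was seen for Spink5, with 3650.2 ± 592 with ca-Nfatc2, 161 ± 37.5 with ca-Nfatc1 and 5.71 ± 2.09 with GFP (mean ± SD, n = 5). Col16a1, a collagen, was at 4995 to 6381 with ca-Nfatc2 and 228 to 359 with ca-Nfatc1 (difference 4.21, limma adjusted p = 3.49e-12). Akr1b8, an aldo-keto reductase, differed from these in its baseline: it was at 2878 to 3905 with ca-Nfatc2, but at 152 to 173 with ca-Nfatc1 and 133 to 227 with GFP, so that ca-Nfatc1 and GFP overlapped.

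In the opposite direction, Rab13 was at 228, 182, 186, 273 and 217 normalized counts with ca-Nfatc2, against 1756, 1441, 1286, 1502 and 1685 with ca-Nfatc1, and at 62.6 to 79.3 with GFP. The groups did not overlap, and Rab13 had the smallest standard error among the lower genes of this set, with a difference of -2.82 (standard error 0.09, limma adjusted p = 1.87e-11). Tead2 was at 102 to 209 with ca-Nfatc2 and 1053 to 1505 with ca-Nfatc1 (difference -3.32), with 10.8 to 29.5 in GFP islets. Lrp4 was at 76.2 to 139 with ca-Nfatc2 and 986 to 1322 with ca-Nfatc1 (difference -3.595), with 45.1 to 74.9 in GFP islets. Slc16a14, a member of the monocarboxylate transporter family, and Vwce, a secreted protein with von Willebrand C and EGF domains, differed by -3.49 and -3.41. Pde9a, a cGMP phosphodiesterase, was at 7.37 to 44.3 with ca-Nfatc2 and 119.5 to 239 with ca-Nfatc1 (difference -3.199).

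**Figure D2:**
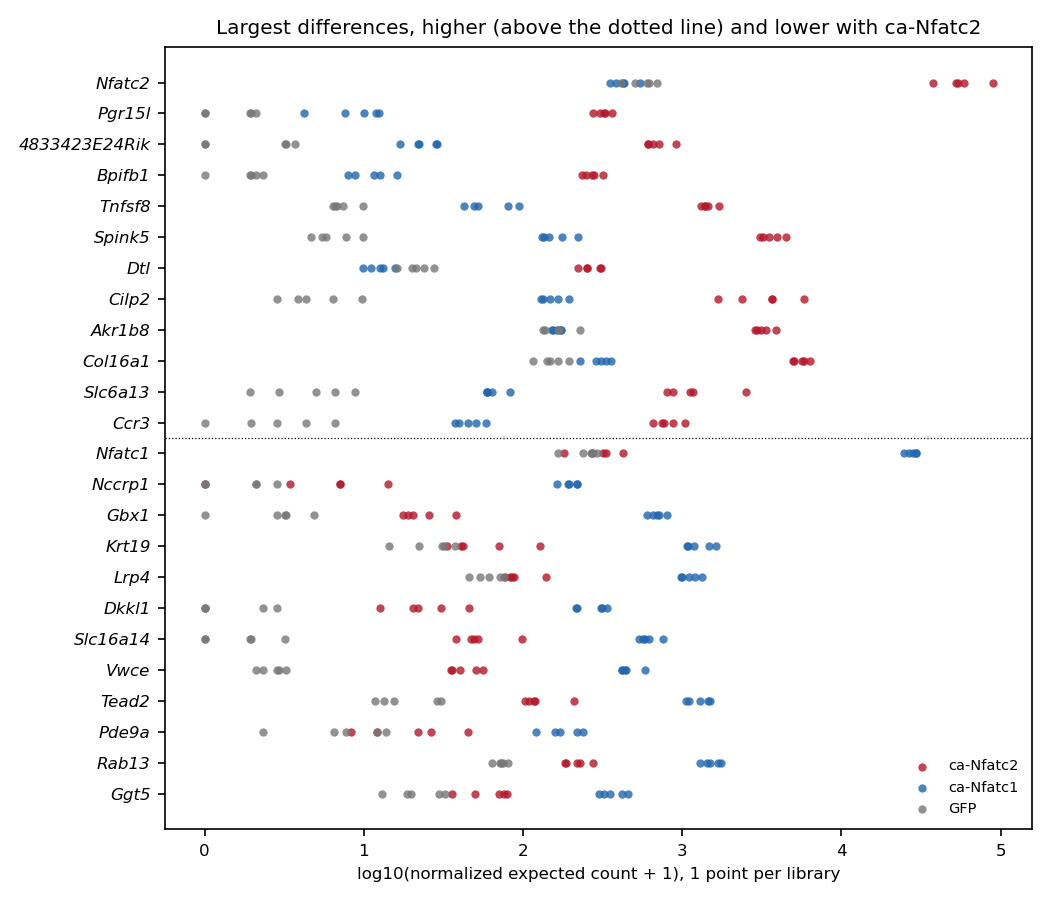
Normalized counts (log10 of the value + 1) of the 12 genes with the largest differences in each direction, 1 point per library, with ca-Nfatc2 in red, ca-Nfatc1 in blue and GFP in grey. For all 24 genes the ca-Nfatc2 and ca-Nfatc1 points do not overlap, and for Dtl, Akr1b8 and Nfatc2 the ca-Nfatc1 points lie among or below the GFP points.

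The promoters of Tnfsf8 and Rab13, a gene from each direction, are shown to place the core letters bound by NFAT, each over 300 bases from 250 before to 50 after the start site in RefSeq (GRCm38.p6, the same build as mm10), in lower case with each GGAAA or its reverse complement TTTCC in capitals. The first is chr4:63861235-63861534 on the minus strand, with 1 match, and the second chr3:90213465-90213764 on the plus strand, with 2 matches. GGAAA on either strand was in 61.3% of 27025 promoters of the RefSeq table.
Tnfsf8 promoter: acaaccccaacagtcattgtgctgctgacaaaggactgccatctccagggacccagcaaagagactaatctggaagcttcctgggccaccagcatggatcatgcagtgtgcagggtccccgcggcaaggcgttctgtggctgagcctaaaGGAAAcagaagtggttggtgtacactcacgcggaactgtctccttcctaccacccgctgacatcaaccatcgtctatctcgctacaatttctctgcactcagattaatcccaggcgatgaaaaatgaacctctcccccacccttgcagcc
Rab13 promoter: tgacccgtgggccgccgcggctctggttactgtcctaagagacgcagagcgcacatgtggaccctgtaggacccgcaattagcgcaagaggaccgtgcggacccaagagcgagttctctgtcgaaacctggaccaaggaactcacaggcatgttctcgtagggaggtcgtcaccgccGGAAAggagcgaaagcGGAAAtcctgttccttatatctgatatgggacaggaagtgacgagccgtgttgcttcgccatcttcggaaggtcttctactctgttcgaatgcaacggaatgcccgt

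Most cell cycle genes were higher with ca-Nfatc2. Of 71 genes of G2 and mitosis, 68 were higher with ca-Nfatc2 (against 27.1% of all genes), 2 were lower and 1 did not pass, with a median difference of 2.09. Of 60 genes of S phase and replication licensing, 52 were higher, 4 lower and 4 did not pass, with a median of 1.003. Among 18 tested genes of G1 (cyclins, kinases, E2F factors and partners, Myc network genes, Skp2 and Cdc25a), 15 were higher and 1 lower. Myc, described below, is among the higher ones. At least 2-fold higher were 53 of the mitotic and 30 of the S phase genes, against 4.76% of all genes.

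Entry into S phase starts with the licensing of origins by the MCM helicase. Mcm3, an MCM subunit, was at 586, 460.3, 597, 713 and 575 normalized counts with ca-Nfatc2, against 107, 115, 117, 142 and 129 with ca-Nfatc1, and at 106 to 192 with GFP. Each ca-Nfatc2 library was more than 3 times every ca-Nfatc1 library (difference 2.25, standard error 0.11, limma adjusted p = 4.84e-10). Mcm5, Mcm2, Mcm7 and Mcm4 differed by 2.14, 1.605, 1.04 and 0.97. Dtl, a substrate receptor of the ubiquitin ligase that removes the licensing factor Cdt1 in S phase, was at 303, 219.7, 306, 250.2 and 253 with ca-Nfatc2 and 12.3, 8.86, 11.7, 10.1 and 14.8 with ca-Nfatc1. That difference of 4.42 (standard error 0.15, limma adjusted p = 3.87e-11) exceeded those of the other well-expressed S phase genes named here. E2f8, a late E2F repressor, was at 57.7 to 105 with ca-Nfatc2 and 0 to 5.45 with ca-Nfatc1, where 1 library was listed at 0 (difference 4.68). The ca-Nfatc2 libraries alone were enough for E2f8 to pass the filter on low values, and no ca-Nfatc1 library reached 10. Its direction, and its place among the higher genes of this list, may therefore have been set by the filter. Uhrf1, which guides maintenance DNA methylation, and Clspn, a replication checkpoint mediator, differed by 3.03 and 3.82. Not all replication genes passed: Gins4, a subunit of the replicative helicase, differed by 0.04 (95% interval -0.11 to 0.18).

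Cdk1, the kinase that drives mitosis, was at 482, 295, 471, 268 and 275 normalized counts with ca-Nfatc2, against 29.5, 17.7, 23.5, 13.1 and 16.3 with ca-Nfatc1, and at 16.6 to 32.2 with GFP. The ca-Nfatc2 libraries were all at least 9 times the highest ca-Nfatc1 library, while the ca-Nfatc1 and GFP libraries overlapped, and the difference was 4.096 (standard error 0.19, limma adjusted p = 4.13e-10). Top2a, the topoisomerase of dividing cells, was at 1364, 916, 1445, 703 and 788 with ca-Nfatc2 and 90.8, 79.7, 101, 60.5 and 79.3 with ca-Nfatc1 (difference 3.61, limma adjusted p = 7.74e-12). Mki67, the proliferation antigen Ki-67, was at 1460.3, 1232, 1479.6, 874 and 898 with ca-Nfatc2 and 113, 85.2, 109, 94.8 and 116 with ca-Nfatc1 (difference 3.48, limma adjusted p = 4.23e-11). Within the ca-Nfatc2 group, replicates 1 and 3 were the highest for each of these 3 genes. Ccnb1 (cyclin B1), Aurkb and Birc5 (subunits of the chromosomal passenger complex), Kif11 (a spindle motor) and Foxm1 (a transcription factor of G2 genes) differed by 2.99, 3.78, 2.501, 2.43 and 2.14. Aurka, a centrosomal kinase, differed less, by 1.29. The 2 lower genes were Pttg1 (securin), with a difference of -0.28 (limma adjusted p = 0.0109), and the kinetochore subunit Ndc80, with a difference of -0.35 (limma adjusted p = 0.0464), which was named after its value was seen. Ndc80 did not pass without the replicate block (limma adjusted p = 0.0868), nor when ca-Nfatc2 replicate 4 or 5 or ca-Nfatc1 replicate 2, 4 or 5 was left out (limma adjusted p = 0.0606 to 0.174). The same held without the filter on low values (limma adjusted p = 0.0611) and without the variance trend of the fit (limma adjusted p = 0.083). Spc25, a kinetochore subunit with high values in all groups (1163 to 2012 with ca-Nfatc2 and 1277 to 2015 with ca-Nfatc1), did not pass (difference -0.09, 95% interval -0.33 to 0.16).

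Promoters of mitotic genes often carry the letters TTTGAA, the cell cycle homology region (CHR) bound by the complex that represses them in resting cells. These letters were present on either strand in 39 of the 60 G2 and mitosis genes with a promoter in the RefSeq table (65.0%), against 18.1% of all 27025 promoters. CCAAT was present in 45 of these 60, against 37.9% of all promoters. The promoters of Cdk1 (chr10:69352863-69353162, minus strand) and Top2a (chr11:99024140-99024439, minus strand) are shown with TTTGAA, or its reverse complement TTCAAA, in capitals. In each, 2 matches were found, of which the one nearer the start begins 15 and 23 bases before it. A match describes the letters and is not a measured site.
Cdk1 promoter: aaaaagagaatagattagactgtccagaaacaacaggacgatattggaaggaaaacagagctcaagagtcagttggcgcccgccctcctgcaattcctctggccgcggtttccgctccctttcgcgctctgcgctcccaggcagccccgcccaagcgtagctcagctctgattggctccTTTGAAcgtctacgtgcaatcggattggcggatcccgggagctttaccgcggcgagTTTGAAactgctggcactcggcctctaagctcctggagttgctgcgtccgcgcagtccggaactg
Top2a promoter: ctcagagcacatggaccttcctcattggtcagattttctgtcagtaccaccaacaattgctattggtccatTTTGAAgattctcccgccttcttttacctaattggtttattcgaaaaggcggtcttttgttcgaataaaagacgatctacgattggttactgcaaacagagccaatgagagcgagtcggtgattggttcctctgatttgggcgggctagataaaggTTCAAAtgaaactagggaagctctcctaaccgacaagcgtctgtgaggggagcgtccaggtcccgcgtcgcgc

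The promoters of Dtl and Mcm3 are shown for the licensing genes, with the letters TTTNNCGC (either strand) of the E2F site in capitals. Dtl (chr1:191575495-191575794, minus strand) had 1 match and Mcm3 (chr1:20820263-20820562, minus strand) had 2. These letters were in 5.27% of the 27025 promoters. No share is given over a set of which under 80% has a promoter in the table, which holds for the S phase list (45 of 60 genes) and for all genes tested (79.8%).
Dtl promoter: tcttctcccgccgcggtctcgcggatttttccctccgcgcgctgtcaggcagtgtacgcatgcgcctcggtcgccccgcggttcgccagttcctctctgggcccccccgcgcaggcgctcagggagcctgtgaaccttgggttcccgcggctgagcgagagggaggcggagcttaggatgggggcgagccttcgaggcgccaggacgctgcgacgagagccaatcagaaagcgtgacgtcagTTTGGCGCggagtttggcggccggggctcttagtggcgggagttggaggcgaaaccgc
Mcm3 promoter: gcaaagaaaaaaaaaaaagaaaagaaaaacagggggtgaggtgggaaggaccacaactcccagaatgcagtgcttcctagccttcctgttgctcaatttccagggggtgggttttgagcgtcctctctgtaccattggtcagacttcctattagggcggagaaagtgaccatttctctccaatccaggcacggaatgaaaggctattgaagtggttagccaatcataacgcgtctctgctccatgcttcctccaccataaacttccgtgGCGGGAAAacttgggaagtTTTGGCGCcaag

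The growth regulator Myc also separated the factors. Myc, a transcription factor of growth and ribosome production that is kept low in mature β-cells, was at 4228, 5642, 5488, 4821 and 5026 normalized counts with ca-Nfatc2, against 557, 529, 553, 587 and 577 with ca-Nfatc1, and at 242 to 417 with GFP. The lowest ca-Nfatc2 library was thus about 7 times the highest ca-Nfatc1 library, and the ca-Nfatc1 libraries were themselves above every GFP library. The difference of 3.16 (standard error 0.10, limma adjusted p = 8.9e-12) varied between 2.92 and 3.41 over the 5 days. Ccne1 and Ccne2, cyclins E that start DNA synthesis, differed by 2.01 and 1.41, and Ccna2 (cyclin A2) by 2.87. Ccnd1 (cyclin D1) was at 1822 to 2247 with ca-Nfatc2, at 1082 to 1279.8 with ca-Nfatc1 and at 1935 to 2475 with GFP, so that the ca-Nfatc1 libraries were the ones below the control. E2f1 and E2f3, activators of S phase genes, and Cdk4, the partner of cyclins D, differed by 1.05, 1.06 and 0.53. Ccnd3 (cyclin D3) differed by 0.20 (limma adjusted p = 0.0184), a call that was lost without ca-Nfatc2 replicate 1 or 2 or ca-Nfatc1 replicate 1 or 3, with limma adjusted p = 0.0662 at most.

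Cell cycle inhibitors were split, with 9 of 26 higher with ca-Nfatc2, 14 lower and 3 not passing. Cdkn1c (p57), an inhibitor of cyclin-dependent kinases that restrains β-cell replication, was at 38.1, 47.9, 33.7, 26.6 and 29.8 normalized counts with ca-Nfatc2, against 227, 177, 185, 162 and 192 with ca-Nfatc1, and at 13.3 to 24.2 with GFP. The ca-Nfatc1 libraries were thus raised over both other groups, and the difference was -2.41 (standard error 0.14, limma adjusted p = 3.39e-09). Plk5, a polo-like kinase without mitotic function, was also highest with ca-Nfatc1, at 4.43 to 14.6 with ca-Nfatc2, 27.2 to 46.5 with ca-Nfatc1 and 8.29 to 21.5 with GFP. Cdkn2b (p15) and Gadd45b, a stress-induced growth arrest protein, were lower, with differences of -0.79 and -1.26. E2f7, a repressor that is itself induced in S phase, was higher, by 2.78. Cdkn2c (p18) and Men1 (menin), which restrains islet growth, differed by -0.08 (95% interval -0.41 to 0.25) and -0.02 (95% interval -0.14 to 0.11). Cdkn2a was low, at 9.64 to 23.4 with ca-Nfatc2 and 2.13 to 12.4 with ca-Nfatc1, and its difference of 0.92 (limma adjusted p = 0.034) did not pass without the replicate block (limma adjusted p = 0.0673) or without 5 of the libraries in turn. Cdkn2a also did not pass in the fit of the 10 ca-NFAT libraries alone (limma adjusted p = 0.0682).

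All 50 genes of ribosome biogenesis were higher with ca-Nfatc2, with a median difference of 0.97 and a range of 0.23 to 1.74. In 48 of these genes every ca-Nfatc2 library was above every ca-Nfatc1 library, against 18.3% of all genes, and 24 were at least 2-fold higher. All 50 passed in each of the 20 alternative fits. Nop16, a nucleolar protein of the large subunit, was at 1142, 1032, 1131, 1359 and 1119.8 normalized counts with ca-Nfatc2, against 352, 349, 307, 403 and 313 with ca-Nfatc1, and at 379 to 445 with GFP. The ca-Nfatc1 libraries overlapped the GFP libraries, and the difference was 1.74 (standard error 0.06, limma adjusted p = 4.18e-11). Nop56 and Nhp2, proteins of the small nucleolar particles that modify ribosomal RNA, and Nolc1, a chaperone of these particles, differed by 1.46, 1.46 and 1.34. Abundant nucleolar proteins shared this: Ncl (nucleolin) was at 23713, 21274, 21597, 25193 and 24603 with ca-Nfatc2, against 10581, 10675, 8883, 10367 and 9812 with ca-Nfatc1 (difference 1.21), and Npm1 (nucleophosmin) differed by 1.25. For both genes every ca-Nfatc2 library was above every ca-Nfatc1 library. Ubtf, a factor of RNA polymerase I, and Gnl2, a nucleolar GTPase, had the smallest differences of the list, 0.23 and 0.30.

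**Figure D3:**
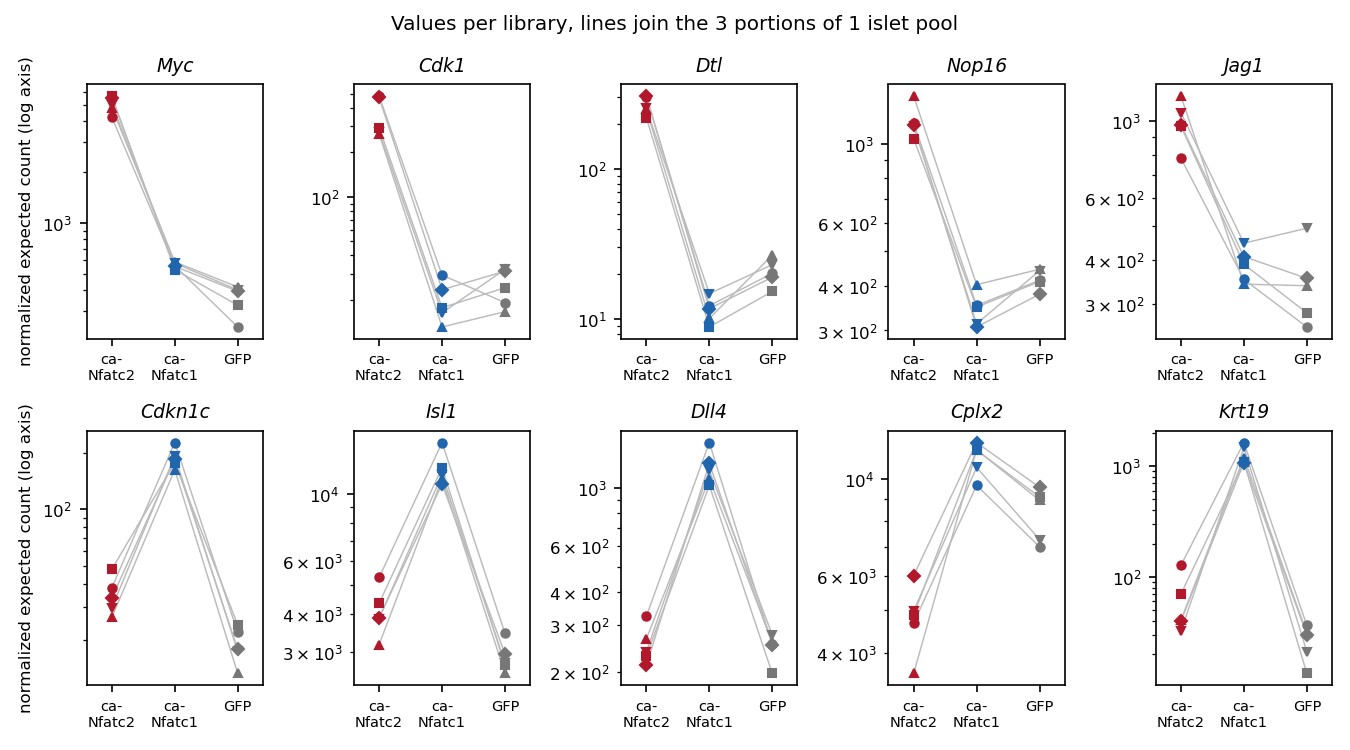
Normalized counts per library (log axis) of 10 genes with ca-Nfatc2 (red), ca-Nfatc1 (blue) and GFP (grey), where marker shapes are the days and lines join the portions of 1 islet pool. Myc, Cdk1, Dtl, Nop16 and Jag1 are highest with ca-Nfatc2, whereas Cdkn1c, Isl1, Dll4, Cplx2 and Krt19 are highest with ca-Nfatc1 on every day.

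Genes of protein synthesis and its supplies were also mostly higher with ca-Nfatc2. Among 43 genes of the amino acid response and tRNA charging, 27 were higher, 8 lower and 8 did not pass, and without the replicate block 26 were higher and 4 lower. Psat1 and Phgdh, enzymes of serine synthesis, Shmt2, the mitochondrial enzyme that feeds folate with serine carbon, and Slc7a1, a cationic amino acid transporter, differed by 1.06, 0.81, 0.83 and 0.75. Psat1 was at 1479 to 1736 normalized counts with ca-Nfatc2 and 656 to 957 with ca-Nfatc1, and at 998 to 1309 with GFP, so that the ca-NFAT groups lay on opposite sides of the control. Chac1 and Sesn2, targets of the stress factor ATF4, did not pass (differences -0.07 and 0.03, with 95% intervals -0.19 to 0.04 and -0.07 to 0.12). Among abundant genes, Rplp0 (a ribosomal stalk protein), Hnrnpa1 (a splicing factor), Eef1a1 (a translation elongation factor) and Tuba1b (an α-tubulin) were higher, by 1.06, 1.19, 0.58 and 1.58.

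Of 36 glycolytic and pyruvate genes, 19 were higher and 10 lower (against 27.1% and 31.3% of all genes). Pfkfb3, whose product makes the main activator of phosphofructokinase, was at 983, 972, 1209, 1399.7 and 1077 normalized counts with ca-Nfatc2, against 249, 228, 279, 225 and 299 with ca-Nfatc1, and at 249.9 to 391 with GFP. The ca-NFAT groups did not overlap (difference 2.13, standard error 0.10, limma adjusted p = 4.09e-10). Ldha and Slc16a1, the lactate dehydrogenase and lactate transporter that mature β-cells keep low, were higher, by 1.07 and 1.19, and Pgam1 and Gapdh by 0.99 and 0.71. Ldha had its highest ca-Nfatc2 value in replicate 4 (1774, against 699.7 to 1241 in the other 4), and its difference without that library was 0.88. G6pdx, of the pentose phosphate pathway, differed by 0.02 (95% interval -0.09 to 0.13). Of 67 respiratory chain genes, 30 were higher, 3 lower and 34 did not pass, and the differences were small, with Cycs (cytochrome c) the largest at 1.004. The count of lower genes was 1 without the replicate block, without ca-Nfatc2 replicate 4 or without ca-Nfatc1 replicate 2 or 4, and 6 without ca-Nfatc1 replicate 3.

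Of 42 genes of cholesterol and fatty acid synthesis, 16 were higher and 15 lower with ca-Nfatc2, with a median difference of -0.01. Idi1 (isopentenyl diphosphate isomerase), Fasn (fatty acid synthase) and Elovl6 (a fatty acid elongase) were higher, by 1.16, 0.93 and 0.70, and Acss2 (acetyl-CoA synthetase) was lower, with a difference of -0.68. Idi1 was at 4434 to 7568 normalized counts with ca-Nfatc2, 2575 to 3108 with ca-Nfatc1 and 500.0 to 547 with GFP, so that it was high with either factor. Sqle (squalene epoxidase) differed by 0.01 (95% interval -0.10 to 0.12). Of 34 genes of fatty acid oxidation and ketone metabolism, 17 were lower and 6 higher, or 15 and 3 without the replicate block. Acaa2 and Hadh, enzymes of β-oxidation, Lipe (hormone-sensitive lipase) and Angptl4 (an inhibitor of lipoprotein lipase) were lower, with differences of -1.08, -0.68, -0.93 and -1.23.

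Heat shock genes were more often higher and genes of the unfolded protein response more often lower. Of 24 heat shock genes, 13 were higher with ca-Nfatc2 and 6 lower (against 27.1% and 31.3% of all genes). The mitochondrial chaperonin Hspd1 and the cytosolic Hsp90ab1 were higher, by 1.03 and 0.63, whereas the co-chaperone Bag3 was lower, with a difference of -0.92. Hspa1a and Hspa1b, near-identical stress-induced copies whose reads may be split between them, were lower, with differences of -0.63 and -0.71. Of 35 genes of the unfolded protein response of the endoplasmic reticulum, 19 were lower (against 31.3% of all genes). Of the rest 1 was higher and 15 did not pass, and the median of the list was -0.18. Ddit3 (CHOP) was at 621 to 1174 normalized counts with ca-Nfatc2 and 1166 to 1912 with ca-Nfatc1 (difference -0.94, limma adjusted p = 3.63e-06), and at 1889 to 2940.2 with GFP. Xbp1 and Ern1 (IRE1), which form a signalling branch of this response, were lower, with differences of -0.55 and -0.43. Ero1l, an oxidase of the same compartment, differed by -0.02 (95% interval -0.12 to 0.09).

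β-cell genes were mostly lower with ca-Nfatc2. Of 46 genes of β-cell identity and function tested, 37 were lower (against 31.3% of all genes), 3 were higher and 6 did not pass, with a median difference of -0.44. Without ca-Nfatc2 replicate 4, 33 were lower and the median was -0.35. In 13 of the 46 every ca-Nfatc2 library was below every ca-Nfatc1 library, against 16.3% of all genes. Of the 8 β-cell markers 7 were lower, and their summed level ranged from 524400 to 948500 with ca-Nfatc2 and from 785300 to 1176000 with ca-Nfatc1, and their part in these differences was not tested.

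Isl1, a LIM homeobox factor needed for islet cell maturation, was at 5286, 4346, 3890.3, 3174 and 3869 normalized counts with ca-Nfatc2, against 14742, 12175, 10752, 11181 and 11544 with ca-Nfatc1, and at 2548 to 3456 with GFP. The ca-Nfatc1 libraries were at least 2 times every ca-Nfatc2 library, and the difference was -1.57 (standard error 0.06, limma adjusted p = 6.96e-11). Nnat (neuronatin), which aids insulin processing, likewise was highest with ca-Nfatc1, at 609.9 to 839 with ca-Nfatc2, 1784 to 2613 with ca-Nfatc1 and 222 to 408 with GFP (difference -1.54). Others were lowest with ca-Nfatc2 and highest with GFP. Slc30a8, the zinc transporter of insulin granules, was at 3965, 2991, 3719, 1312 and 2432 with ca-Nfatc2, against 5763, 5605, 5083, 4508 and 4261 with ca-Nfatc1, and at 10083 to 15339 with GFP. Each ca-Nfatc2 library was below each ca-Nfatc1 library (difference -0.90, limma adjusted p = 8.54e-05). Kcnj11, the pore of the ATP-sensitive potassium channel, and Ucn3 (urocortin 3), a maturity marker, were lower, with differences of -0.71 and -0.83, the second of which was -0.55 without ca-Nfatc2 replicate 4. Mafa, an insulin gene activator, was at 189.7, 187, 228, 30.98 and 74.5 with ca-Nfatc2 and 313, 184, 276, 140.2 and 229 with ca-Nfatc1. These groups overlapped, and the difference of -0.94 (limma adjusted p = 0.022) was -0.53 without ca-Nfatc2 replicate 4 (limma adjusted p = 0.0525) and did not pass without the replicate block (limma adjusted p = 0.0734), nor without ca-Nfatc2 replicate 5 or ca-Nfatc1 replicate 1 or 5 (limma adjusted p = 0.0538 to 0.0788). Mafa also did not pass without the variance trend of the fit (limma adjusted p = 0.0591). Pax6, a factor of all islet endocrine cells, differed by -0.07 (95% interval -0.17 to 0.04), and Pam, an enzyme of peptide hormone processing, by -0.08 (95% interval -0.19 to 0.03).

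Among 16 islet hormone and granule genes, 10 were lower with ca-Nfatc2, 1 was higher (none after quantile normalization) and 5 did not pass. Sst (somatostatin) was at 1803, 2530.0, 3868, 1897 and 2428 normalized counts with ca-Nfatc2, against 4440.5, 5968, 5972, 6988 and 5242 with ca-Nfatc1, and at 14033 to 28093 with GFP. No library overlapped between the 3 groups, and the difference between the ca-NFATs was -1.23 (standard error 0.12, limma adjusted p = 5.46e-07). Ppy, Pyy and Iapp, peptide hormones of the islet, were lower, with differences of -0.49, -0.47 and -0.58, and so was Chga (chromogranin A), with -0.53, which did not pass after quantile normalization (-0.22, limma adjusted p = 0.0805). Of 23 α-, δ- and PP-cell genes, 16 were lower and 1 was higher. The exception was Sstr1, a somatostatin receptor, at 246, 275, 283, 149 and 164 with ca-Nfatc2, against 45.01, 43.2, 51.3, 45.9 and 38.9 with ca-Nfatc1, and at 8.88 to 21.2 with GFP. It was raised over both other groups in every ca-Nfatc2 library (difference 2.25), while Sstr3 was lower, with a difference of -0.61.

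Genes of ion channels and of the exocytosis machinery were also mostly lower with ca-Nfatc2. Of 65 calcium and potassium channel and pump genes, 39 were lower with ca-Nfatc2, 9 were higher (5 without the replicate block) and 17 did not pass, with a median of -0.43. Of 50 exocytosis genes, 30 were lower, 8 higher and 12 did not pass, with a median of -0.30. Cplx2 (complexin 2), which clamps and promotes vesicle fusion, was at 4674, 4885, 6007, 3581 and 4982 normalized counts with ca-Nfatc2, against 9674, 11647, 12123, 11667 and 10632 with ca-Nfatc1, and at 6989 to 9571 with GFP. The GFP libraries lay between the groups, and the difference was -1.22 (standard error 0.09, limma adjusted p = 4.86e-08). Cacna1h, a T-type calcium channel pore, Cacng4, an auxiliary calcium channel subunit, Kcnip2, an auxiliary potassium channel subunit, Ryr2, a calcium release channel, Syt13, a synaptotagmin, and Rims3 were lower, with differences of -1.76, -2.17, -2.15, -1.55, -0.72 and -0.87. Cacng4 was at 58.9 to 107 with ca-Nfatc2, 300.3 to 449 with ca-Nfatc1 and 34.6 to 74.9 with GFP, a rise with ca-Nfatc1 in every library. The largest exception was Kcnq5, a voltage-gated potassium channel, at 184, 255, 223, 122 and 166 with ca-Nfatc2, against 23.7, 29.9, 36.3, 28.2 and 26.4 with ca-Nfatc1, and at 5.38 to 12.3 with GFP (difference 2.64, limma adjusted p = 3.92e-08). Doc2a, a calcium sensor of vesicle fusion, was also higher, by 1.17. Atp2b4, a plasma membrane calcium pump, was at 6803 to 9622 with ca-Nfatc2, 7475 to 10105 with ca-Nfatc1 and 646 to 1009 with GFP, and did not pass between the ca-NFATs (difference -0.06, 95% interval -0.19 to 0.08).

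**Figure D4:**
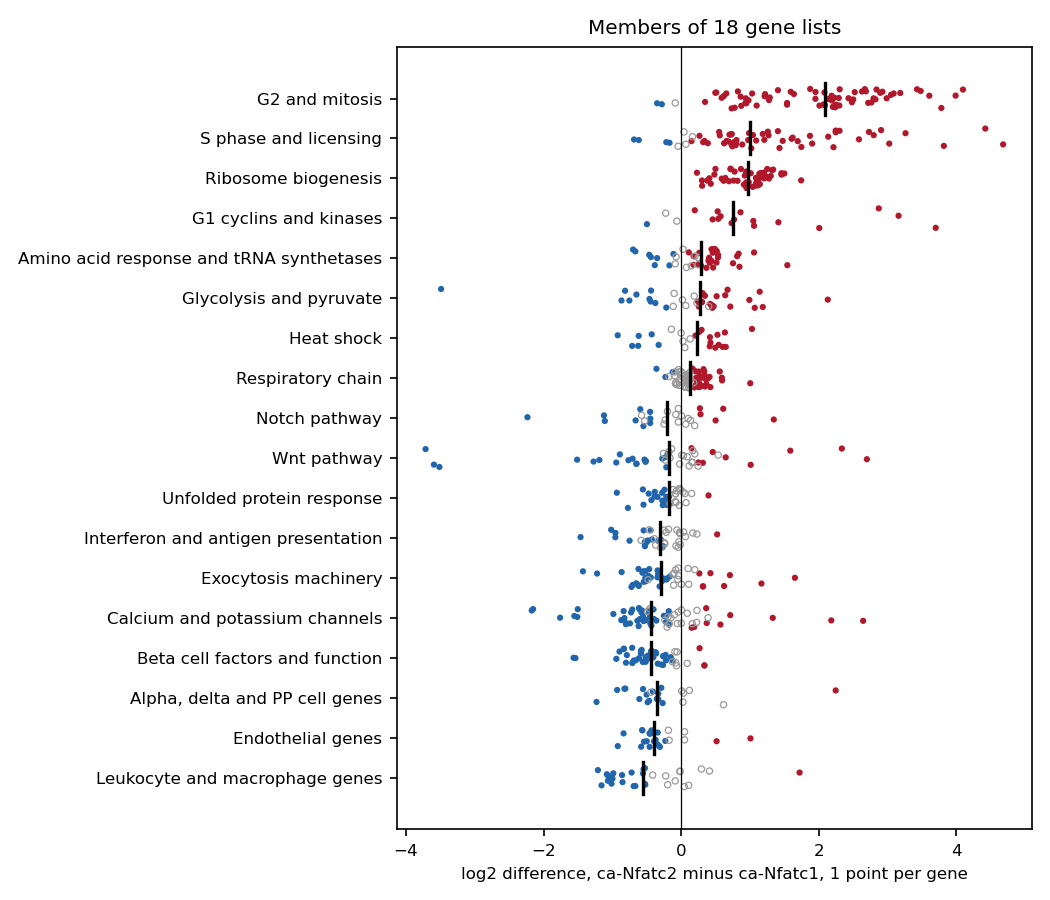
Log2 difference of ca-Nfatc2 minus ca-Nfatc1 of the tested members of 18 gene lists, 1 point per gene, with the median as a black bar. Red and blue points passed the threshold as higher and lower with ca-Nfatc2, and open points did not pass; all ribosome biogenesis members are red, and 39 of 65 channel genes are blue.

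In the Notch pathway, 9 of 27 genes were lower with ca-Nfatc2 and 5 higher (against 31.3% and 27.1% of all genes). Only 3 were higher without the replicate block, without ca-Nfatc2 replicate 2 or without ca-Nfatc1 replicate 3. The ligand Dll4 was at 325, 229.6, 212, 266 and 238 normalized counts with ca-Nfatc2, against 1483, 1019, 1237, 1081 and 1162 with ca-Nfatc1, and at 197 to 276 with GFP. The ligand Jag1 took the opposite order, at 781, 965, 972, 1177 and 1055 with ca-Nfatc2, against 352, 389, 409, 341 and 447 with ca-Nfatc1, and at 257 to 493 with GFP. Neither gene overlapped between the ca-NFATs, with a difference of -2.23 for Dll4 (limma adjusted p = 1.28e-10) and of 1.35 for Jag1 (limma adjusted p = 4.7e-08). The receptor Notch1, the ligand Dll1 and Numb, an inhibitor of Notch, were lower, with differences of -1.12, -1.11 and -0.66. Rbpj, the DNA-binding effector of the pathway, differed by 0.00 (95% interval -0.09 to 0.10), and the target gene Heyl by -0.04 (95% interval -0.33 to 0.25).

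In the Wnt pathway, 19 of 44 genes were lower with ca-Nfatc2 and 9 higher (against 31.3% and 27.1% of all genes). The ligand Wnt6 was at 2.598, 1.23, 5.26, 14.2 and 7.89 normalized counts with ca-Nfatc2, against 69.6, 55.3, 93.9, 59.5 and 115 with ca-Nfatc1, and at 0 to 2.24 with GFP. The ca-Nfatc1 libraries were thus far above both other groups (difference -3.72). Wnt6 passed the filter on low values through the ca-Nfatc1 libraries alone. Its direction, and its place among the lower genes of this list, was therefore set by the filter. The receptor Fzd9 was at 316, 412, 336, 285 and 261 with ca-Nfatc2, against 70.4, 59.9, 52.3, 83.7 and 50.6 with ca-Nfatc1, and at 0.921 to 3.35 with GFP. Fzd9 was raised with both factors and more with ca-Nfatc2 (difference 2.33, limma adjusted p = 3.02e-07). Secreted proteins of the pathway were split, with Sfrp2 and Dkk3 higher, by 2.699 and 1.59, and Dkkl1 lower, with a difference of -3.51. Lgr5, a stem cell receptor for R-spondins, was high with both, at 796 to 1072 with ca-Nfatc2, 463 to 656 with ca-Nfatc1 and 5.05 to 21.5 with GFP (difference 0.65, limma adjusted p = 0.0176). That small difference was lost when ca-Nfatc2 replicate 2 (limma adjusted p = 0.0658) or ca-Nfatc1 replicate 4 (limma adjusted p = 0.0704) was left out. Tcf7l2, a nuclear effector, was at 149 to 300.1 with ca-Nfatc2 and 154 to 209 with ca-Nfatc1 (difference 0.12, 95% interval -0.11 to 0.34).

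Of 27 genes of the EGF family and MAP kinase feedback, 5 were higher with ca-Nfatc2 and 8 lower (against 27.1% and 31.3% of all genes). The ligand Areg (amphiregulin) was at 122, 138, 124, 232 and 174 normalized counts with ca-Nfatc2, against 36.8, 39.8, 40.5, 44.4 and 42.01 with ca-Nfatc1, and at 59.2 to 107 with GFP, so that ca-Nfatc1 was below and ca-Nfatc2 above the control. The ligand Egf was at 235 to 308 with ca-Nfatc2, 621 to 736 with ca-Nfatc1 and 240.1 to 307 with GFP. The differences were 1.89 for Areg (limma adjusted p = 5.19e-08) and -1.35 for Egf (limma adjusted p = 7.22e-09). Hbegf, another ligand, was higher, by 0.92, the receptor Erbb2 was lower, with a difference of -1.64, and Lrig1, a receptor inhibitor, differed by 0.03 (95% interval -0.12 to 0.18). Of 51 genes of the TGF-β, BMP and activin pathways, 20 were lower and 4 higher (against 31.3% and 27.1% of all genes). Bmp1 (a procollagen protease) and Lefty1 (a nodal inhibitor) were lower, with differences of -1.002 and -1.01, and Bmp6 was higher, by 1.43. The signal transducer Smad5 differed by 0.00 (95% interval -0.11 to 0.11).

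Classical NFAT targets did not share a direction and divided much as all genes did. Of 27 tested from immune cells and osteoclasts, 7 were higher with ca-Nfatc2, 9 lower and 11 did not pass. Among all genes 27.1% were higher and 31.3% lower. Ctsk (cathepsin K), the collagen-degrading protease of osteoclasts and a target of Nfatc1 there, was at 275, 196, 243, 222 and 202 normalized counts with ca-Nfatc2, against 1695, 1306, 1259, 1403 and 1254 with ca-Nfatc1, and at 42.2 to 116 with GFP. Dgka, a diacylglycerol kinase of anergic T cells, was at 488, 494, 416, 409.8 and 406 with ca-Nfatc2, against 2327, 1914, 1904, 1716 and 1871 with ca-Nfatc1, and at 176 to 226 with GFP. Both were above GFP in all libraries of either factor and several-fold higher with ca-Nfatc1, with differences of -2.600 for Ctsk (limma adjusted p = 5.01e-08) and -2.13 for Dgka (limma adjusted p = 2.21e-11). Pdcd1 (PD-1), an inhibitory receptor of T cells, was listed at 0 in all GFP libraries and was at 54.2 to 142 with ca-Nfatc2 and 14.4 to 24.5 with ca-Nfatc1 (difference 1.89). Calcr, the calcitonin receptor, and Ptgs2 (cyclooxygenase-2) were higher, by 2.38 and 1.24, or by 2.28 and 0.89 without ca-Nfatc2 replicate 4. Acp5, the osteoclast acid phosphatase, was at 489, 406, 447, 3055 and 1135 with ca-Nfatc2 and 844, 639, 699, 868 and 1214 with ca-Nfatc1 and did not pass (difference -0.07). Without ca-Nfatc2 replicate 4, its highest library, Acp5 was lower, with a difference of -0.55 (limma adjusted p = 0.00694).

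Cytokine genes were mixed as well. Of 53 interleukins, chemokines and their receptors, 17 were lower with ca-Nfatc2 and 6 higher (against 31.3% and 27.1% of all genes). The median was -0.25, and without ca-Nfatc2 replicate 4, 25 were lower and 5 higher. Il20rb, a subunit of the IL-20 receptor, was at 262, 225, 229, 249.6 and 224 normalized counts with ca-Nfatc2, against 39.3, 37.6, 44.8, 51.4 and 39.1 with ca-Nfatc1, and at 18.8 to 35 with GFP (difference 2.47, limma adjusted p = 4.19e-09). Il2rg, the common γ chain, was at 450.4, 446, 526, 1192 and 684 with ca-Nfatc2 and 197, 164, 165, 138 and 171 with ca-Nfatc1, and its difference of 1.88 was 1.54 without replicate 4, its highest library. Neither gene overlapped between the groups. The chemokine Ccl7 was at 379 to 788 with ca-Nfatc2, 1079 to 1585 with ca-Nfatc1 and 8.06 to 35 with GFP (difference -1.27). Il1rap, the accessory protein of the IL-1 receptor, was high with both, at 1027 to 1185 with ca-Nfatc2, 1069 to 1260.2 with ca-Nfatc1 and 165 to 208 with GFP, and did not pass (difference -0.02, 95% interval -0.16 to 0.12). Of 30 TNF superfamily genes, 7 were higher and 4 lower, without ca-Nfatc2 replicate 4, 6 were higher and 8 lower, and without the replicate block 4 were higher and 3 lower. Tnfsf9 (4-1BB ligand), at 2212 to 3069.8 with ca-Nfatc2 and 2889 to 4442 with ca-Nfatc1, was lower, with a difference of -0.44, unlike Tnfsf8.

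Among 33 AP-1 and immediate early genes, 8 were higher with ca-Nfatc2, 5 lower and 20 did not pass. Without the replicate block 3 were lower, and with 1 library left out from 2 (without ca-Nfatc2 replicate 1 or ca-Nfatc1 replicate 1) to 7 (without ca-Nfatc2 replicate 4) were. Leaving out ca-Nfatc2 replicate 2, 3 or 5 or ca-Nfatc1 replicate 5 gave 3. The orphan nuclear receptors of the Nr4a family differed among themselves. Nr4a1 (Nur77) was at 317, 317, 386, 555 and 386 normalized counts with ca-Nfatc2, against 116, 95.2, 115, 122 and 107 with ca-Nfatc1, and at 109 to 126 with GFP, so that the ca-Nfatc1 libraries overlapped the control and the ca-Nfatc2 libraries lay above it. Nr4a2 (Nurr1) was higher, by 1.01, and Nr4a3 (Nor1) was at 338 to 1055 with ca-Nfatc2, 311 to 561 with ca-Nfatc1 and 6.72 to 13.3 with GFP and did not pass (difference 0.37, limma adjusted p = 0.0967, and 0.0455 without ca-Nfatc1 replicate 1). Without ca-Nfatc2 replicate 4 the Nr4a3 difference was 0.17 (limma adjusted p = 0.36), without ca-Nfatc1 replicate 4 it was 0.20 (limma adjusted p = 0.337), and no other single library moved it by over 1.5 times. The Nr4a1 difference was 1.78 (standard error 0.11, limma adjusted p = 5.22e-09). Npas4, an activity-dependent factor, Egr2 and Dusp4, a MAP kinase phosphatase, were higher, by 1.44, 1.02 and 0.73, and Srf differed by -0.01 (95% interval -0.12 to 0.10). Of 22 genes of the NFAT family and calcineurin, 2 were higher (1 without ca-Nfatc1 replicate 1), 6 lower and 14 did not pass. The transgenes Nfatc2 and Nfatc1 are counted here as higher and lower, which the viruses set in advance. The other higher gene was Nfatc3, with a difference of 0.14. Among those not passing was the regulatory subunit Ppp3r1, at 5028 to 5774 with ca-Nfatc2, 5107 to 6068 with ca-Nfatc1 and 2788 to 3044 with GFP (difference 0.01, 95% interval -0.09 to 0.12). Dyrk1b, a kinase of the family that returns NFAT to the cytoplasm, and the scaffold protein Homer2, which binds NFAT in competition with calcineurin, were lower, with differences of -0.66 and -0.76.

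Markers of endothelial cells and leukocytes were mostly lower with ca-Nfatc2. Of 25 endothelial genes, 19 were lower and 2 higher, with a median of -0.40, and of 30 leukocyte and macrophage genes, 19 were lower and 1 higher, with a median of -0.55. Of 7 defining endothelial markers 6 were lower, and of 9 leukocyte markers 7 were lower and 1 was higher. The summed endothelial markers ranged from 2118 to 3055 with ca-Nfatc2 and from 2775 to 3908 with ca-Nfatc1, and the summed leukocyte markers from 1478 to 1734 with ca-Nfatc2 and from 1850.0 to 2548 with ca-Nfatc1. The part of these markers in other results was not tested. Lyz2 (lysozyme) and C1qb (a complement subunit), made by macrophages, were lowest in ca-Nfatc2 replicate 4. Lyz2 was at 696, 758, 828, 151 and 527 normalized counts with ca-Nfatc2, against 1054, 1442, 1007, 946 and 973 with ca-Nfatc1 (difference -1.06, and -0.71 without that library). C1qb was at 94.4, 82.2, 106, 13.3 and 63.1 with ca-Nfatc2 and 145, 164, 112, 123 and 127 with ca-Nfatc1 (difference -1.16, and -0.68 without that library). The exception was Csf1r, the macrophage colony-stimulating factor receptor, at 242, 252, 236, 1047 and 437 with ca-Nfatc2 and 115, 107, 109, 115 and 106 with ca-Nfatc1. It was highest in the library where the other macrophage genes named were lowest, and its difference was 1.72, or 1.31 without it. Mmrn1 (multimerin 1), counted among the endothelial genes, was also higher, at 384 to 672 with ca-Nfatc2 and 231 to 249.6 with ca-Nfatc1 against 0 to 2.22 with GFP, while Plvap, of fenestrated endothelium, differed by 0.05 (95% interval -0.10 to 0.20).

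Of 46 mesenchymal, collagen and matrix genes, 16 were lower with ca-Nfatc2 and 5 higher. Without ca-Nfatc2 replicate 4, or without ca-Nfatc1 replicate 4, 26 were lower and 4 higher, and without the replicate block 11 were lower and 2 higher. Acan (aggrecan), the cartilage proteoglycan, was at 1044, 1028, 1066, 2829 and 1480.3 normalized counts with ca-Nfatc2, against 169, 138, 185, 140.2 and 243 with ca-Nfatc1, and at 0 to 3.35 with GFP. Mmp14, a membrane-bound matrix metalloprotease, was at 382, 414, 525, 761 and 509 with ca-Nfatc2, against 1385, 1362, 1637, 1230.3 and 1598 with ca-Nfatc1, and at 256 to 546 with GFP. These genes did not overlap between the ca-NFATs and went in opposite directions, with differences of 2.99 for Acan (limma adjusted p = 3.4e-07) and -1.51 for Mmp14 (limma adjusted p = 8.06e-07). Comp (cartilage oligomeric matrix protein) and Timp3 (a metalloprotease inhibitor) were lower, with differences of -1.73 and -0.90, and Thbs1 (thrombospondin 1) differed by -0.04 (95% interval -0.17 to 0.09).

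Of 27 ductal and keratin genes, 13 were lower with ca-Nfatc2 (against 31.3% of all genes), 4 higher and 10 did not pass. There were 7 lower without the replicate block, 7 without ca-Nfatc1 replicate 5 and 8 without ca-Nfatc1 replicate 1. Krt19 was at 127, 69.97, 39.99, 40.7 and 32.4 normalized counts with ca-Nfatc2, against 1632, 1092, 1077, 1193 and 1472 with ca-Nfatc1, and at 13.4 to 36.5 with GFP, whereas Krt8, also an epithelial keratin, was at 1607 to 2331 with ca-Nfatc2 and 1751 to 2038 with ca-Nfatc1 and did not pass (difference -0.05, 95% interval -0.18 to 0.08). Sox9, a factor of pancreatic progenitors and ducts, was higher, by 1.04, and Tspan8 was lower, with a difference of -0.94. Acinar genes were near 0 in most libraries and uneven among the ca-Nfatc1 ones: Ctrb1 (chymotrypsinogen) was at 0, 8.59, 2.15, 19.5 and 14.9 with ca-Nfatc2, against 0, 236, 53.3, 110.0 and 59.1 with ca-Nfatc1. Its difference of -2.62 (limma adjusted p = 0.0174) did not pass without ca-Nfatc1 replicate 2 (limma adjusted p = 0.0742) or replicate 3 (limma adjusted p = 0.0575), nor without the replicate block (limma adjusted p = 0.0913). The Ctrb1 difference was -1.77 without ca-Nfatc1 replicate 2, and -3.53 without ca-Nfatc1 replicate 1. The trypsin family members 1810009J06Rik and Gm2663, which may share reads, stood apart from this, at 6371 to 21519 and 3400.1 to 11759 with ca-Nfatc2 and at 529 to 622 and 259 to 352 with ca-Nfatc1. They were at most 13.97 and 16.4 with GFP, and their reads cannot be assigned to either with certainty.

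Of 42 interferon and antigen presentation genes, 20 were lower with ca-Nfatc2 (against 31.3% of all genes), 1 was higher and 21 did not pass, with a median of -0.31. Without the replicate block 11 were lower and none higher, and without ca-Nfatc2 replicate 4, 29 were lower. Cmpk2, a mitochondrial nucleotide kinase induced by interferon, was at 1069, 931, 899, 760.4 and 884 normalized counts with ca-Nfatc2, against 2801, 2811, 2183, 2484 and 2252 with ca-Nfatc1, and at 676 to 914 with GFP (difference -1.46, limma adjusted p = 1.43e-10). The ca-Nfatc1 libraries were all above the control, which the ca-Nfatc2 libraries overlapped. Rsad2 (viperin), Tap2 (a peptide transporter of antigen presentation) and Isg15 were lower, with differences of -0.96, -0.75 and -1.02. Without ca-Nfatc2 replicate 4 these differences were -1.1, -0.85 and -1.36. B2m, the light chain of class I molecules, was lower, with a difference of -0.51 (limma adjusted p = 0.00392), and did not pass without the replicate block (limma adjusted p = 0.0594).

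Of 30 p53 targets, 13 were higher with ca-Nfatc2 and 8 lower (against 27.1% and 31.3% of all genes). Eda2r, a TNF receptor family member, Aen, an apoptosis nuclease, and Phlda3, an inhibitor of Akt, were higher, by 1.801, 1.13 and 0.75. The tetraspanin Cd82 was lower, with a difference of -0.84, and Bbc3 (PUMA) differed by 0.01 (95% interval -0.29 to 0.31). Of 27 Polycomb and DNA methylation genes, 7 were higher and 11 lower (against 27.1% and 31.3% of all genes). Ezh2 and Eed, subunits of Polycomb repressive complex 2, and Dnmt1, the maintenance DNA methyltransferase, were higher, by 0.94, 0.58 and 0.86, and Bmi1 and Rnf2, of Polycomb repressive complex 1, differed by 0.03 and 0.00 (95% intervals -0.08 to 0.14 and -0.11 to 0.10). Ezh2 was at 233 to 298 normalized counts with ca-Nfatc2, 131 to 180.4 with ca-Nfatc1 and 180.0 to 198 with GFP.

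Of 33 homeobox factors outside the endocrine core, 17 were lower with ca-Nfatc2 (against 31.3% of all genes), 3 higher and 13 did not pass. Gbx1, which patterns the nervous system, was at 37.2, 24.6, 17.9, 19.5 and 16.6 normalized counts with ca-Nfatc2, against 802, 712, 657, 597 and 691 with ca-Nfatc1, and at 0 to 3.84 with GFP (difference -4.896, limma adjusted p = 3.17e-09). Emx2, a factor of the forebrain and urogenital tract, was at 17.3, 22.1, 19.99, 93.2 and 26.3 with ca-Nfatc2 and was listed at 0 in every ca-Nfatc1 and GFP library. Gbx1 was thus highest with ca-Nfatc1. Emx2 was detected only with ca-Nfatc2 and passed the filter on low values through those libraries alone. Its direction, and its place among the higher genes of this list, was therefore set by the filter. Among liver genes, 7 of 31 apolipoprotein and acute phase genes were higher and 8 lower (against 27.1% and 31.3% of all genes). Apoa1 and Apoa5, of lipoprotein particles, were higher, by 2.01 and 2.68, and Mug1 and Mug2, near-identical murinoglobulins that may share reads, differed by 3.92 and -1.78. Of 10 S100 genes tested, 3 were lower. S100a5, a calcium-binding protein, was at 297 to 457 with ca-Nfatc2, 987 to 1347 with ca-Nfatc1 and 0 to 2.76 with GFP (difference -1.75).

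Reference genes were not neutral between the factors. Of 16 housekeeping genes, 10 were higher with ca-Nfatc2 and 4 lower (against 27.1% and 31.3% of all genes). Gapdh, Ppia and Eef1a1 were higher, by 0.71, 0.64 and 0.58, and Gusb was lower, with a difference of -0.52. Tbp, a subunit of the general transcription factor TFIID, differed by 0.00 (95% interval -0.14 to 0.15). Setting the library totals equal, with or without the transgenes and hormones, or quantile normalization left the counts of this list at 9 or 10 higher and 4 lower, without the replicate block they were 9 and 1, and without ca-Nfatc2 replicate 1 they were 10 and 2.

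The ca-Nfatc2 libraries varied among themselves more than the ca-Nfatc1 libraries, and replicate 4 was the extreme for many named genes. It had the most Nfatc2 (89098 normalized counts, against 37600.0 to 58781 in the other 4). Csf1r was at 1047 there and at 236 to 437 in the others, Emx2 at 93.2 against 17.3 to 26.3, and Tslp, a cytokine of epithelia, at 476 against 99.97 to 223. Mafa, Lyz2 and C1qb were at their lowest in the same library. Replicate 5 lay on the same side for several of these genes, with Csf1r at 437 and Tslp at 223. Leaving replicate 4 out moved the difference of Tslp to 1.71 (against 2.199 over all libraries), of Slc6a13 to 4.03 (against 4.19) and of Acan to 2.75 (against 2.99), and each still passed. For Myc, Cdk1, Nop16 and Dll4 the value without it was 3.21, 4.06, 1.73 and -2.26. Whether the dose of Nfatc2 has a part in this was not tested.

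**Figure D5:**
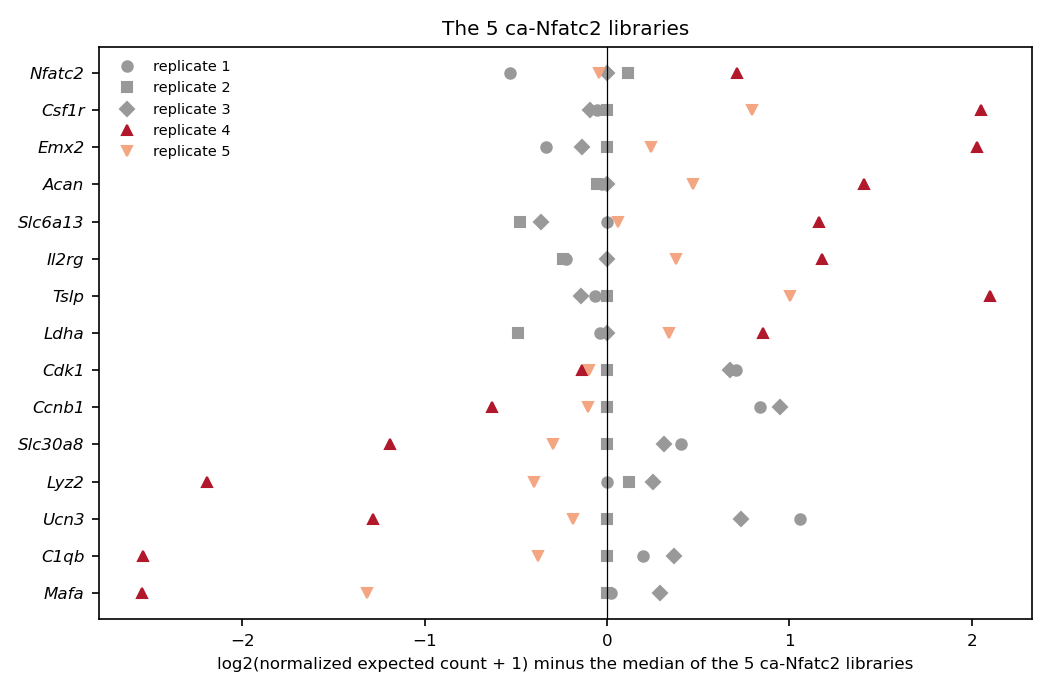
Values of 15 genes in the 5 ca-Nfatc2 libraries as log2(normalized count + 1) minus the median of these libraries, with replicate 4 as red triangles. Replicate 4 is the highest library for the 8 genes from Nfatc2 to Ldha and the lowest for the 7 from Cdk1 to Mafa.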

How the data were processed

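RNA of whole islets was sequenced in 15 libraries. Per the study's methods, reads were aligned with Bowtie to the RefSeq mm10 reference and RSEM estimated expected counts (versions for these libraries are not given in the sources used here). The deposited signal values are expected counts that the authors divided by median-by-ratio size factors, so that they are comparable between libraries but are not whole reads. The authors' 3 fold, 3 mean and 5 posterior probability columns were not used. From 20308 entries, 14151 with a 75th percentile above 10 were tested. A gene high in only 1 group can pass this filter through that group alone, as Emx2 and Wnt6 did, which sets its direction in advance. E2f8 may be such a gene, since none of its ca-Nfatc1 values reached 10. Of the entries, 27 have names that a spreadsheet had turned into dates, and they are not named. In limma 3.58.1 (R 4.3.3), log2(value + 1) was fitted over all 15 libraries with group and day, with a variance trend and Benjamini-Hochberg adjustment at 0.05. The script was tested on simulated data. A fold on this scale understates the change of low genes. Intervals are 95% and not adjusted over genes. Day pairs the libraries by design, since each pool was split over the viruses. Residuals of same-day ca-Nfatc2 and ca-Nfatc1 libraries correlated at 0.0544 to 0.396 (mean 0.19). Those of different days correlated at -0.26 to 0.338 (mean -0.05), so that these ranges overlapped. The genes named were the 12 largest differences a direction with a mean of at least 100, up to 6 passing and 2 least different members of each list, the transgenes, genes the study names, and the 6 largest a direction among the 200 highest genes. Members and lists were chosen with earlier results of these data known. Alternatives were the replicate block, the libraries fitted, the pseudocount, the filter, the scaling, the variance trend and leaving out each library. Promoters are from RefSeq (GRCm38.p6) and were matched by symbol. Some genes are not reported here.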

Additional observations from a re-analysis of the deposited data

Results flagged for a closer look

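In the genes named in the text, 1 library lay far from the other 4 of its group in 29 of 430 groups of 5 examined (6.7%). The cutoff used marks about 1 group in 20 for independent, normally distributed values. Normalized counts need not be so distributed and the named genes share libraries, so that these shares cannot be compared. The gap to the nearest other library was more than 0.71 of the range of the group in each case. Of these libraries, 13 were ca-Nfatc2 replicate 4, and no other library had more than 4.

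With ca-Nfatc2, replicate 4 was the highest library in all 13 cases. Acan was at 2829 normalized counts there (1028 to 1480 in the other 4), Acp5 at 3055 (406.3 to 1135), Csf1r at 1047 (235.7 to 436.6), Slc6a13 at 2502 (802.5 to 1165), Pdcd1 at 141.6 (54.22 to 65.72) and Emx2 at 93.24 (17.32 to 26.29). These are genes that were higher with ca-Nfatc2 than with ca-Nfatc1, except Acp5, which did not pass. The flagged genes lower with ca-Nfatc2 were nearest to their ca-Nfatc1 level in this library, with Tead2 at 209.0 (102.1 to 117.4), Lrp4 at 139.0 (76.21 to 87.16), Slc16a14 at 97.37 (36.83 to 51.56) and Cd82 at 4700.0 (3377 to 3648). Other lower genes, such as Isl1, Slc30a8, Cplx2 and Mafa, were at their lowest there and thus farthest from that level. Bmp6 was at 231.9 (107.4 to 137.8), the p53 target Aen at 1893 (1420.0 to 1485) and Ubtf at 3153 (2816 to 2868).

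Cell cycle genes stood out in other ca-Nfatc2 libraries, with Foxm1 at 165.1 in replicate 3 (94.52 to 106.0), Cdk4 at 4701 in replicate 1 (3946 to 4072) and Ezh2 at 233.3 in replicate 2 (286.6 to 297.7). Replicate 3 was also highest for Dkk3, at 267.3 (109.8 to 143.7), and for Heyl, at 176.8 (100.7 to 121.8), and replicate 2 for Egf, at 308.1 (235.5 to 255.5).

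With ca-Nfatc1, replicate 3 was highest for Cacng4, at 449.1 (300.3 to 334.1), and Vwce, at 584.6 (419.0 to 440.6), and lowest for Gm2663, at 259.3 (332.8 to 352.5), and Hspd1, at 5591 (6393 to 6570.0). Replicate 2 was highest for the macrophage gene Lyz2, at 1442 (945.8 to 1054), for Ppp3r1, at 6068 (5107 to 5244), and for Ero1l, at 4316 (3905 to 4002). Replicate 1 was highest for Slc6a13, at 81.84 (58.05 to 63.1), and lowest for Rbpj, at 843.6 (933.1 to 961.5), and replicate 4 was lowest for Birc5, at 21.87 (24.85 to 26.05).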

How the results depend on the processing

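The direct contrast was refitted under 20 alternatives. The count of genes higher with ca-Nfatc2 was 3833 and the count of lower genes 4429. Leaving out 1 library at a time gave 3574 to 3788 higher and 4068 to 4375 lower. Without the replicate block, which pairs the libraries of 1 islet pool, there were 3335 higher and 3639 lower. The widest shift in the balance came from equal library totals without the transgenes and hormones, at 3539 higher and 4863 lower. Of 185 named genes that passed, 177 passed under every alternative run, 6 lost their call when 1 library was left out, 5 without the replicate block, and none reversed its direction under any of them. Another 5 named genes passed only under an alternative. Requiring a mean of at least 100 left fewer genes in most lists, such as 30 of G2 and mitosis, of which 27 were higher. The median of the apolipoprotein list was -0.131 without ca-Nfatc2 replicate 4, against 0.288 over all libraries. Without the replicate block the cholesterol list had 13 higher and 14 lower genes, and its median, near 0, changed sign under 3 alternatives. The normalized values are not whole reads, so that counting error could not be given, and the 5 libraries a group are separate pools whose portions were split before transduction.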

Other observations

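In the Slc16 and Slc25 families, 16 of 49 solute carriers were higher with ca-Nfatc2 and 16 lower. These counts were near the shares over all genes (27.1% higher and 31.3% lower). Slc25a33, a mitochondrial pyrimidine nucleotide carrier, was higher, at 96.98 to 116 normalized counts with ca-Nfatc2 and 47.6 to 69.3 with ca-Nfatc1 (difference 0.94, limma adjusted p = 2.68e-05). Slc16a9 was at 59.3 to 148 with ca-Nfatc2 and 158 to 204 with ca-Nfatc1, and at 393 to 521 with GFP (difference -0.81, limma adjusted p = 0.000178). Of 48 growth factor genes and receptors, 18 were lower and 7 higher (4 without ca-Nfatc1 replicate 4). Pdgfc, a ligand of the platelet-derived growth factor family, was at 15.6 to 27.2 with ca-Nfatc2 and 40.96 to 50.1 with ca-Nfatc1 (difference -1.102). Irs2, an adaptor of the insulin receptor, differed by 0.00 (95% interval -0.23 to 0.23). Of 26 genes kept low in mature β-cells, 5 were higher and 7 lower (4 without the replicate block), with Sox4, a factor of endocrine progenitors, at 916 to 1270.1 with ca-Nfatc2 and 687 to 757 with ca-Nfatc1 (difference 0.57), and Cd24a at 383 to 771 with ca-Nfatc2 and 776 to 1007 with ca-Nfatc1 (difference -0.69).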
